A study of Mus musculus with 12 samples.

Results

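The nuclear genes for subunits of the respiratory chain and of ATP synthase were described in leukaemic stem cells of 2 mouse leukaemias. Members were taken by gene symbol, as the Ndufa, Ndufb, Ndufc, Ndufs and Ndufv genes of complex I (the Ndufaf assembly factors left out), Sdha to Sdhd of complex II, the Uqcr genes of complex III, the Cox4 to Cox8 genes of complex IV, the Atp5 genes of ATP synthase (complex V) and Cycs, which encodes cytochrome c. This gave 83 genes measured by 173 of the 45037 probe sets, and 77 of them passed the filter on low values (above 16 intensity units, log2 above 4, on at least 3 of the 12 arrays) and were tested among 10817 genes. Complex I had 36 genes, of which 34 passed, and complex IV had 17, of which 13 passed. All 4 genes of complex II, all 8 of complex III, all 17 of ATP synthase and Cycs passed.

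The respiratory chain lies in the inner mitochondrial membrane. Complexes I and II take electrons from NADH and succinate and hand them to coenzyme Q, complex III passes them to cytochrome c, and complex IV passes them to oxygen. Complexes I, III and IV pump protons out of the matrix, and ATP synthase uses their return to make ATP. Most subunits are nuclear genes, while a few core subunits are encoded in the mitochondrial genome. Stem cells of human AML are known to rely on oxidative phosphorylation.

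The 4 groups of 3 arrays were compared, each array from a sample that the titles call a biological replicate. Donor cells were stem and progenitor cells (KLS) from Msi2 Gt/Gt mice, homozygous for a gene trap in the gene of the RNA-binding protein Musashi2, or from wild-type mice, and the strain label B6;CB-Msi2Gt(pU-21T)2Imeg stands on all samples. After infection with BCR-ABL/NUP98-HOXA9 the transplanted cells gave blast crisis chronic myelogenous leukaemia (bcCML), whose stem cells were sorted as Lin- cells. After infection with MLL-AF9 they gave de novo acute myelogenous leukaemia (AML), whose stem cells were sorted as Lin-Sca1-ckit+ cells. No treatment was given. The trap is in the donor cells from the start, and the labels do not say whether replicates came from separate recipients, so p-values measure the spread between these samples. Driver, gate and leukaemia cannot be told apart in any comparison of bcCML with AML.

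Msi2 itself had 487, 721 and 608 units in mutant bcCML and 2583, 4319 and 4579 units in wild-type bcCML, and 52.9, 69.1 and 86.9 units in mutant AML and 325, 181 and 430.3 units in wild-type AML. In each leukaemia the highest mutant array lay under the lowest wild-type one. Kit, the marker of the AML gate, was above the filter level on all 12 arrays, while Itgam, a mature myeloid marker, was under it on all 6 bcCML arrays. AML mutant array 1 stood apart in summed monocyte and macrophage markers, with 13351 units against 28491 to 55713 on the other AML arrays.

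The members were bright. Their mean log2 level had a median of 12.24 over the tested members, against 8.54 over all genes tested, and 71 of the 77 had a mean log2 above 10. They also varied little, with a median within-group SD of 0.16 on the log2 scale, against 0.31 over all genes. Levels of different probe sets are not comparable with each other, so genes are compared across arrays only.

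In AML, Msi2 mutant cells had less Ndufv1 RNA than wild-type cells. Ndufv1 encodes the complex I flavoprotein that binds NADH and takes its electrons. It measured 939, 1143 and 1142 units on the mutant arrays, against 1953, 1856 and 1782 units on the wild-type arrays. The groups did not overlap, and the geometric mean of mutant cells was 0.575 times that of wild-type cells. The log2 difference was -0.80 ± 0.13 (SE; limma adjusted p = 0.0206, n = 3 each). All 3 Ndufv1 probe sets were lower, by log2 differences of -0.80, -0.76 and -0.84. It was the only one of 77 members called, against 1.52% of all genes in either direction (1.14% lower) and 0.781% of the genes with a mean log2 above 10, a level chosen after the values were seen. It no longer passed when wild-type AML array 1 was left out (adjusted p = 0.094), with a fit on the 6 AML arrays only (0.161) and with the replicate number as a block (0.0979).

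Other complex I subunits of AML lay just outside the threshold. Ndufs8, an iron-sulphur subunit on the path from NADH to coenzyme Q, had 2516, 2571 and 2788 units in mutant cells, against 4458, 4192 and 3795 units in wild-type cells. Ndufb8, an accessory subunit of the membrane arm, had 3013, 3803 and 3495 units in mutant cells and 5704, 5227 and 4442 units in wild-type cells. In both genes every mutant array lay below every wild-type array. The log2 differences were -0.66 ± 0.15 for Ndufs8 (limma adjusted p = 0.0678) and -0.58 ± 0.14 for Ndufb8 (0.0821).

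Most members had small estimates below 0 in AML mutant cells. Of the 77, 68 had an estimate below 0, against 57.1% of all genes, and their median log2 difference was -0.12, against -0.05 over all genes. Of the genes with a mean log2 above 10, 58.9% were below 0. An unadjusted p under 0.05 was found for 10 members, against 14.2% of all genes. For 15 members the 3 mutant arrays lay under the 3 wild-type arrays, against 11.6% of all genes, and for 0 members above them, against 5.18% of all genes. Beside Ndufv1, Ndufs8 and Ndufb8 these were Ndufa5, Ndufa8, Ndufa12, Ndufb6, Ndufs3 and Ndufs7 of complex I, Uqcrq of complex III, Cox4i1 and Cox8a of complex IV, and Atp5g1, Atp5g3 and Atp5md of ATP synthase. The per-array mean deviation of the members from their own mean was -0.06, -0.19 and -0.26 on the mutant arrays and 0.04, 0.13 and -0.17 on the wild-type arrays. The groups overlapped here, since wild-type array 3 lay among the mutant arrays.

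**Figure D1:**
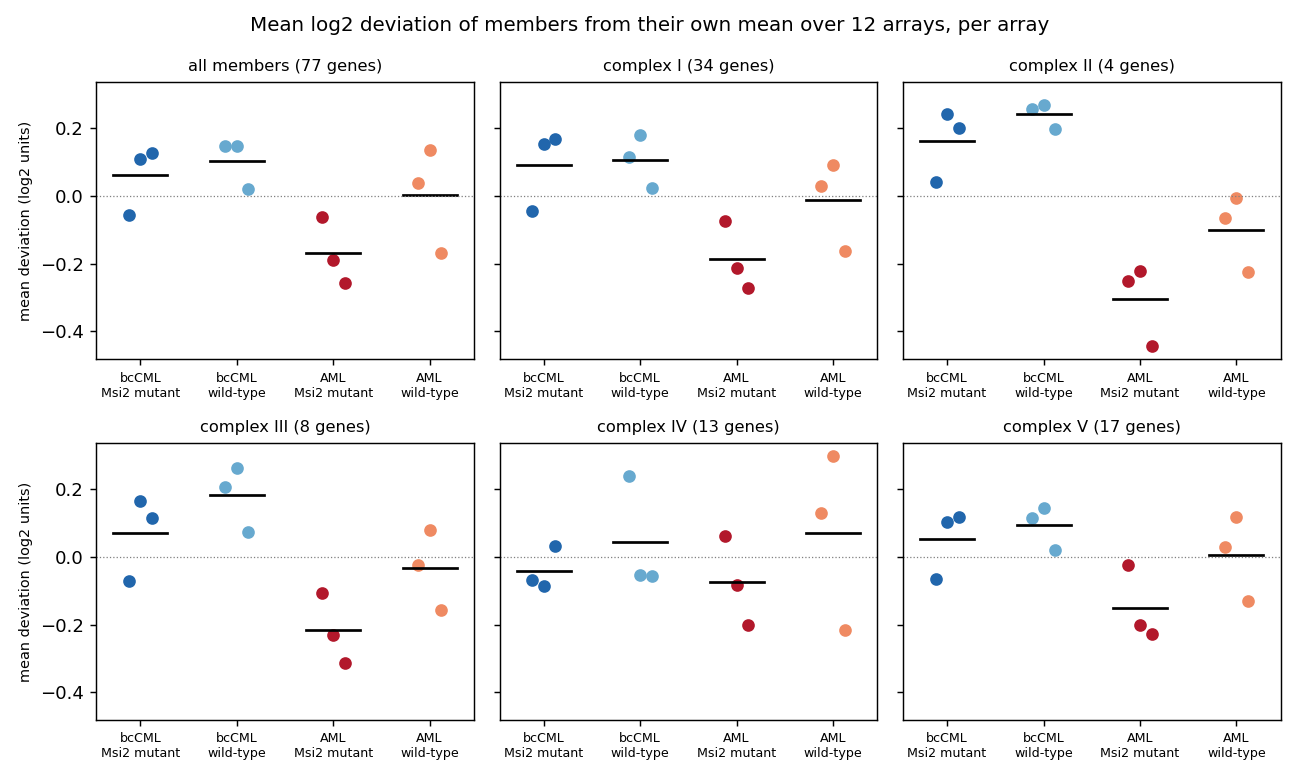
Mean log2 deviation of the tested members from their own mean over 12 arrays, for all 77 members and by complex; each point is 1 array, each bar the mean of a group, with bcCML groups on the left and AML groups on the right, mutant before wild-type. AML mutant arrays run from -0.26 to -0.06 over all members and wild-type AML arrays from -0.17 to 0.13.

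Sums of some markers of other cells differed by genotype in AML. The 12 neutrophil granule markers summed to 211626 to 243523 units on mutant arrays, against 131227 to 174766 units on wild-type arrays, with no overlap, and 10 of the 12 had estimates above 0. Single genes of the list went both ways, since Ltf was called higher, with 555, 201 and 136 units on mutant and 32.9, 67.2 and 27.5 units on wild-type arrays, and Mmp8 lower, with 9.92, 23.9 and 15 units on mutant and 132, 288 and 97.1 units on wild-type arrays. The 10 tested monocyte and macrophage markers summed to 13351 to 55713 units on mutant and 28491 to 41334 units on wild-type arrays, which overlapped. Of the 7 erythroid markers on the array 5 were tested, and these summed to 34 to 44.9 units on mutant and 36.3 to 41 units on wild-type arrays, with Hba-a1 under the filter level on all arrays. Tested megakaryocyte markers summed to 257 to 972 units on mutant and 53 to 169.7 units on wild-type arrays. Those of T and NK cells (2 of 9 on the array) summed to 5202 to 8031 units on mutant and 1487 to 5035 units on wild-type arrays, with Cd3e, Cd3d and Cd3g under the filter level on all arrays. Those of B cells (3 of 6) summed to 559.9 to 789 units on mutant and 798 to 1123 units on wild-type arrays, with Pax5 under the filter level. These 3 sums did not overlap between genotypes either, while those of mast cells, basophils and eosinophils did (1919 to 6791 units on mutant and 2394 to 7049 units on wild-type arrays). Single genes of these 3 lists went both ways. Estimates were above 0 for 4 of 6 megakaryocyte, 1 of 2 T and NK cell and 2 of 3 B cell markers. Nkg7 made up nearly all of the T and NK cell sum, since Thy1 was at most 17 units on the AML arrays. Cd79b, with 731, 518 and 470 units on mutant and 1098, 850 and 718 units on wild-type arrays, made up most of the B cell sum. The part of these cells in the members' values was not tested. Without AML mutant array 1 the Ndufv1 difference was -0.70 ± 0.13 (limma adjusted p = 0.0314). In bulk samples, fewer cells of a type and less RNA per cell cannot be told apart.

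In the other complexes the smallest p values in AML mutant cells were those of Uqcr10 and Uqcrq in complex III, Cox8a and Cox6a2 in complex IV, and Atp5md and Atp5g1 in ATP synthase, and none passed the threshold. Uqcrq, a small subunit at the coenzyme Q site of complex III, had 2121, 1871 and 1847 units in mutant cells and 2579, 2954 and 2556 units in wild-type cells (log2 difference -0.47 ± 0.17, limma adjusted p = 0.236). Cox8a, the common form of the smallest complex IV subunit, had 1434, 1633 and 1804 units in mutant and 2106, 2933 and 2019.8 units in wild-type cells (-0.52 ± 0.17, adjusted p = 0.193). Atp5md, a small membrane subunit of ATP synthase, had 2205, 2745 and 3060.3 units in mutant and 3955, 4102 and 3519 units in wild-type cells (-0.54 ± 0.16, adjusted p = 0.138). All 3 of these genes had non-overlapping arrays. Complex II had 4 of 4 genes below 0, with estimates from -0.28 to -0.14 and overlapping arrays in each.

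Within ATP synthase, the 4 peripheral stalk genes (Atp5h, Atp5j, Atp5o and Atp5pb), which hold the head still against the rotor, had AML estimates from -0.12 to -0.03. The 3 c ring genes, Atp5g1, Atp5g2 and Atp5g3, which encode one rotor subunit, had estimates from -0.33 to -0.17. The 5 genes of the catalytic F1 head had estimates from -0.32 (Atp5b) to 0.0013 (Atp5e). These groupings were made after values had been seen, and the differences between them were not tested. Cycs, the electron carrier between complexes III and IV, had 2868, 4319.8 and 5183 units in mutant cells and 5689, 7705 and 4212 units in wild-type cells. Its groups overlapped, with a log2 difference of -0.51 ± 0.30 (limma adjusted p = 0.503).

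**Figure D2:**
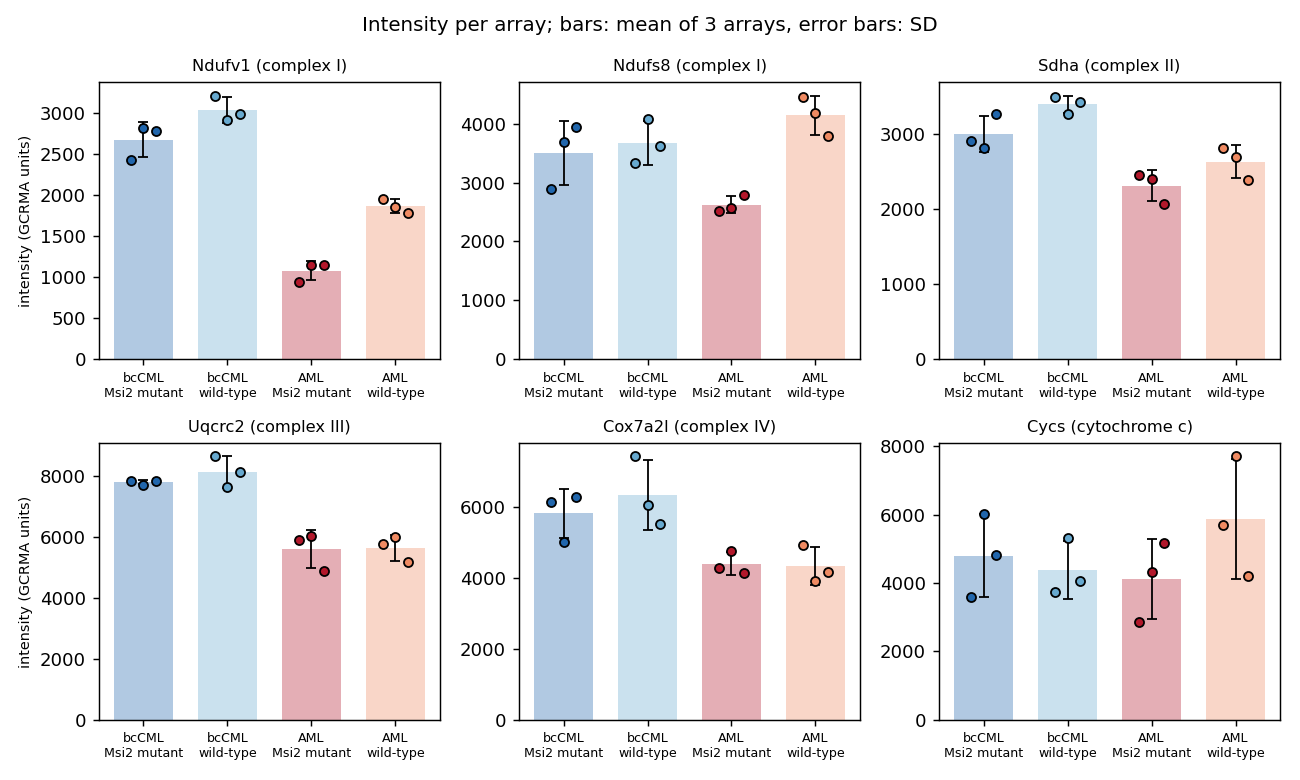
Intensity of 6 members on every array in GCRMA units; points are arrays, bars the mean of 3 arrays and error bars the SD, with mutant left of wild-type and bcCML left of AML. Ndufv1 is the one member called in AML mutant cells, with 939 to 1143 units in mutant and 1782 to 1953 units in wild-type AML.

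In bcCML, no member was called between Msi2 mutant and wild-type cells. Limma called 0 of 77, against 0.139% of all genes, and 0 of 77 had an unadjusted p under 0.05, against 8.32% of all genes. The median log2 difference was -0.04, against -0.02 over all genes, with 48 members below 0, against 54.0% of all genes. The mutant arrays lay under the wild-type ones for Ndufa10, Ndufv1 and Sdha (3 members, against 10.1% of all genes) and above them for Cox6a1 (1 member, against 5.83%). A fit with the replicate number as a block also called 0 members. The labels state no pairing, although deviations of bcCML arrays of equal replicate number correlated at 0.278 to 0.396. The smallest p was that of Uqcrfs1, the Rieske iron-sulphur protein of complex III. It had 2371, 2956 and 2596 units in mutant and 3456, 3958 and 2771 units in wild-type cells, which overlapped (-0.35 ± 0.18, adjusted p = 0.637).

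Ndufv1 in bcCML had 2426, 2808 and 2780.5 units in mutant cells and 3210.1, 2911 and 2986 units in wild-type cells. The groups did not overlap, but the log2 difference of -0.19 ± 0.13 did not pass (limma adjusted p = 0.759, 95% interval -0.47 to 0.10). Sdha, the flavoprotein of complex II that oxidises succinate, had 2911, 2812 and 3270.1 units in mutant and 3496, 3273 and 3431 units in wild-type bcCML (-0.18 ± 0.13, adjusted p = 0.759). Neutrophil granule markers summed to 3946 to 16703 units in mutant and 11890.2 to 36976 units in wild-type bcCML. The ranges overlapped, but within each of the 3 pairs of equal replicate number the mutant array was the lower one. Monocyte and macrophage markers summed to 2000.0 to 2205 units in mutant and 1236 to 1916 units in wild-type bcCML, with no overlap. Single genes of this list went both ways. Of 10 tested, 6 had estimates above 0 and 4 below 0, with a median of 0.03. Cd68, with 994, 951 and 1612 units in mutant and 598, 811 and 339 units in wild-type bcCML, was a large part of the sum. The part of the neutrophil, monocyte and macrophage markers in the members' values was not tested. The widest estimate was that of Cox7c, at -0.81 ± 0.48, where wild-type array 1 (701 units) lay far above the other arrays.

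The Msi2 effect was not shown to differ between the leukaemias for any member. The interaction, the mutant effect in bcCML minus that in AML, was called for 0 of 77 members and for 0.0% of all genes by limma, while 4 members had an unadjusted p under 0.05, against 9.37% of all genes. Its median over the members was 0.09, against 0.03 over all genes, and 55 members were above 0, against 53.5% of all genes. The 4 were the complex I genes Ndufv1, Ndufa5, Ndufs8 and Ndufb8, with estimates from 0.55 to 0.61. Ndufv1 had the smallest p, at 0.61 ± 0.18 (limma adjusted p = 0.319, 95% interval 0.21 to 1.02). Ndufa5, an accessory subunit next to the coenzyme Q site, had 4222, 5691 and 5514 units in mutant and 3738, 4792 and 4110.2 units in wild-type bcCML, and 3067, 2850.0 and 2962 units in mutant and 3752, 3860.3 and 3507 units in wild-type AML. Its estimate was above 0 in bcCML and below 0 in AML (interaction 0.61 ± 0.21, adjusted p = 0.397).

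**Figure D3:**
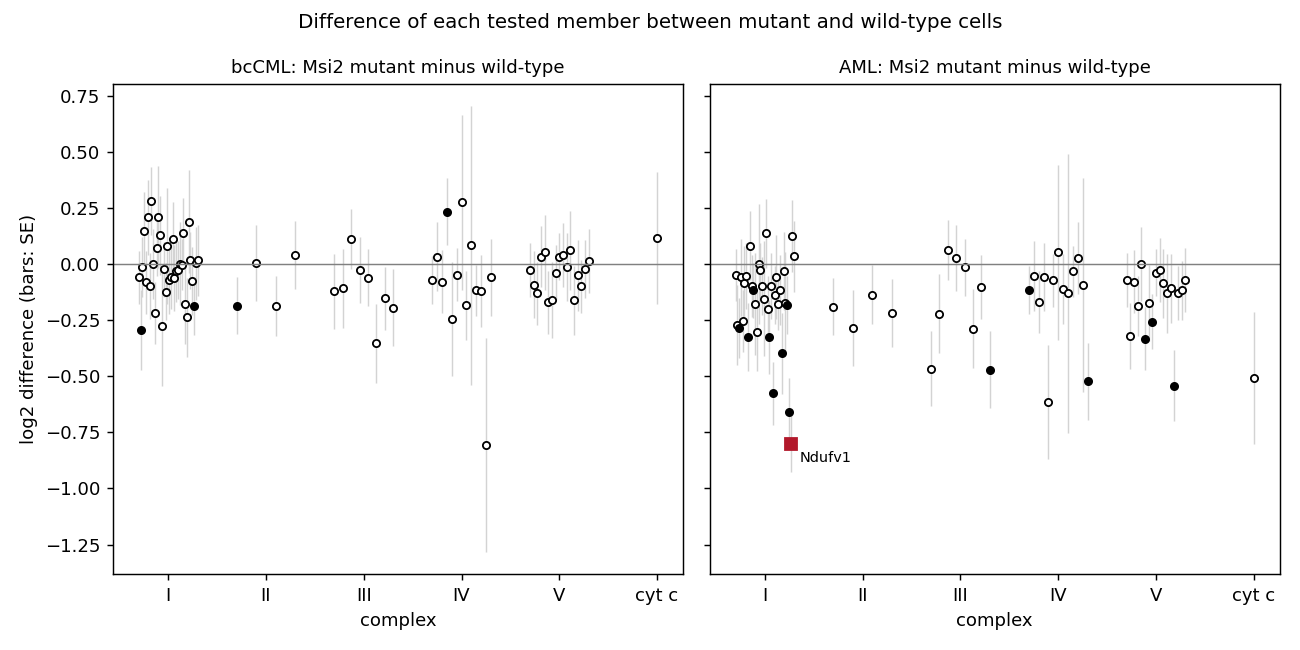
Log2 difference of each tested member between Msi2 mutant and wild-type cells, in bcCML on the left and AML on the right, by complex; bars are SE, filled circles mark members whose 3 mutant arrays do not overlap the 3 wild-type arrays, and the square marks a limma adjusted p at most 0.05. Ndufv1 at -0.80 is the one square, and bcCML has none.

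Between the leukaemias, every member called was higher in bcCML, while some alternatives also called members lower. In Msi2 mutant cells 24 of 77 members were called, all higher, against 45.1% of all genes in either direction (23.2% higher, 21.9% lower). In wild-type cells 8 were called, all higher, against 36.9% of all genes (17.7% higher, 19.3% lower). The share of tested members called was 31.2% in mutant cells and 10.4% in wild-type cells, below the share of all genes called in either direction. Of genes with a mean log2 above 10, 43.7% were called in mutant cells and 32.4% in wild-type cells. Estimates were above 0 for 62 members in mutant cells, against 51.9% of all genes, and for 56 in wild-type cells, against 50.3%. The median log2 difference was 0.22 in mutant cells (0.03 over all genes) and 0.10 in wild-type cells (0.004 over all genes). Without overlap, 32 members were higher and 4 lower in mutant cells, against 29.0% and 26.5% of all genes. In wild-type cells 22 were higher and 5 lower, against 25.6% and 26.8%.

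Among the alternatives 3 members passed as lower in bcCML. Cox7a1, which was not called, passed as lower in bcCML without AML wild-type array 3 (log2 -1.33, limma adjusted p = 0.0427 in mutant cells and -2.24, 0.0101 in wild-type cells), without AML mutant array 3 in mutant cells (-1.83, 0.044) and with the replicate block in wild-type cells (-1.54, 0.0451). Cox7a1 met the filter only through 3 AML arrays, with all bcCML arrays near the floor at 5.33 to 6.12 units. The filter itself thus favoured a lower value in bcCML, so the Cox7a1 passes are no evidence of a direction. In mutant cells Cox7a2 passed as lower with no filter (-0.24, 0.0181) and with limma-trend (-0.24, 0.0123), and Ndufb3 with limma-trend (-0.37, 0.039). The mutant comparison shares no array with the wild-type one, although both use 1 estimate of the spread per gene. They had 7 calls in common, which is 29.2% of the 24 and 87.5% of the 8. Of all genes, 45.1% and 36.9% were called in these comparisons, and the overlap over all genes was not counted. The overlap is thus not read as a trait of the members. The 7 were Ndufa10, Ndufa12, Ndufb6, Ndufs1, Ndufv1, Sdha and Uqcrc2, and Cox7a2l was called in wild-type cells only. That a gene was called in one comparison and not in the other does not show a difference, since no interaction was called.

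Complex I held 12 of the 24 calls in mutant cells and 5 of the 8 in wild-type cells. These are 35.3% and 14.7% of its 34 tested genes, below the 45.1% and 36.9% of all genes called in either direction. Ndufv1 led both, at 1.32 ± 0.13 in mutant cells (limma adjusted p = 2.18e-05) and 0.70 ± 0.13 in wild-type cells (0.00183), and every bcCML array lay above every AML array. Ndufb6, an accessory subunit of the membrane arm, had 3021, 4280.4 and 3075 units in mutant bcCML and 1635, 1711 and 1841 units in mutant AML. In wild-type cells it had 2682, 3392 and 3444 units in bcCML and 2199.6, 2195 and 2094 units in AML. Its groups did not overlap in either genotype, with differences of 0.98 ± 0.16 in mutant cells (adjusted p = 0.000798) and 0.54 ± 0.16 in wild-type cells (0.0251). Ndufs1, the largest iron-sulphur subunit, had 1007, 1128 and 1089 units in mutant bcCML, against 581, 748 and 673 units in mutant AML (0.69 ± 0.16, adjusted p = 0.00478). The wild-type call of Ndufb6 ended without any 1 of the 3 wild-type AML arrays or bcCML wild-type array 2 or 3 (adjusted p up to 0.0884).

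Accessory subunits called in mutant cells included Ndufa5, at 0.79 ± 0.15 (limma adjusted p = 0.00187), and Ndufab1, the mitochondrial acyl carrier protein, at 0.73 ± 0.18 (0.00659). Ndufab1 had 2319, 3320.0 and 2775 units in mutant bcCML and 1695, 1561 and 1754 units in mutant AML, with no overlap. Ndufa10, an accessory subunit of the membrane arm, had 1805, 2049.9 and 2164 units in mutant bcCML and 1541, 1288 and 1091 units in mutant AML, again with no overlap. Its difference was 0.63 ± 0.18 in mutant cells (adjusted p = 0.0155) and 0.65 ± 0.18 in wild-type cells (0.0161). The mutant-cell call ended when array 3 of mutant bcCML (0.0553) or of mutant AML (0.0572) was left out, and the wild-type call when array 1 of wild-type bcCML (0.0586) or array 2 of wild-type AML (0.0585) was. Complex I also held members with estimates below 0 that were not called. Ndufb3 had 3605, 4324 and 4254 units in mutant bcCML, against 5980.0, 4673 and 5139 units in mutant AML, with no overlap (-0.37 ± 0.15, adjusted p = 0.0748). Over the 34 tested genes of complex I, 26 were above 0 and 8 below 0 in mutant cells, and 23 and 11 in wild-type cells.

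Complex II is also an enzyme of the citric acid cycle. All 4 of its genes had estimates above 0 in both genotypes, against 51.9% of all genes in mutant and 50.3% in wild-type cells. In mutant cells every bcCML array lay above every AML array for all 4, against 29.0% of all genes. Of the 4, 3 were called in mutant cells and 1 in wild-type cells. These are 75% and 25%, against 45.1% and 36.9% of all genes. Sdha had 2911, 2812 and 3270.1 units in mutant bcCML and 2449, 2408 and 2072 units in mutant AML (0.38 ± 0.13, limma adjusted p = 0.0339). In wild-type cells it had 3496, 3273 and 3431 units in bcCML and 2817, 2689 and 2390.1 units in AML (0.37 ± 0.13, adjusted p = 0.0424). Its bcCML arrays lay above the AML arrays of the same genotype. Sdhb, the iron-sulphur subunit, had 2049, 2609 and 2592 units in mutant bcCML and 1381, 1825 and 1337 units in mutant AML (0.68 ± 0.17, adjusted p = 0.00834). Sdhd, a membrane anchor, had 2408, 3097 and 2456 units in mutant bcCML and 2048, 1782 and 1751 units in mutant AML (0.51 ± 0.15, adjusted p = 0.0207). The mutant calls ended for Sdha without AML mutant array 2 or 3 or any bcCML mutant array (adjusted p up to 0.12), and for Sdhd without AML mutant array 2 or 3 or bcCML mutant array 2 (up to 0.0841). The Sdha calls of mutant and wild-type cells also ended with the replicate block (0.0536 and 0.066), with probe set means (0.0716 and 0.177) and with a fit on the 6 arrays compared (0.0925 and 0.0758). The Sdhd call ended with probe set means (0.0753) and on those 6 arrays (0.0556). In wild-type cells the Sdha call ended without any wild-type array, AML mutant array 2 or any bcCML mutant array (up to 0.121). The other anchor, Sdhc, was not called in either genotype, at 0.31 ± 0.13 in mutant cells (0.0869) and 0.36 ± 0.13 in wild-type cells (0.0587).

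In complex III, Uqcrc2, a core protein of the matrix side, had 7829, 7709.7 and 7825 units in mutant bcCML, against 5891, 6031 and 4879 units in mutant AML. In wild-type cells it had 8637, 7616 and 8118 units in bcCML and 5745, 5999 and 5173 units in AML. All 6 bcCML arrays lay above all 6 AML arrays, with differences of 0.48 ± 0.13 in mutant cells (limma adjusted p = 0.0112) and 0.53 ± 0.13 in wild-type cells (0.0087). Its partner core protein Uqcrc1 overlapped, at 0.14 ± 0.15 in mutant cells and 0.19 ± 0.15 in wild-type cells (adjusted p = 0.479 and 0.341). Uqcr10, a small subunit, was called in mutant cells by its brightest probe set (0.61 ± 0.17, adjusted p = 0.0125), but not by the mean of its probe sets (0.377).

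In complex IV, Cox7a2l, known for joining complexes III and IV in supercomplexes, had 6161, 5021 and 6303 units in mutant bcCML and 4293, 4778 and 4153 units in mutant AML, with no overlap, and did not pass (0.40 ± 0.16, limma adjusted p = 0.0669). In wild-type cells it had 7442, 6066 and 5535 units in bcCML and 4930.2, 3912 and 4173 units in AML, with no overlap either, and was called (0.54 ± 0.16, adjusted p = 0.0226). The wild-type call of Cox7a2l ended when array 1 of wild-type bcCML (0.0801) or array 2 (0.0777) or 3 (0.058) of wild-type AML was left out, and on the 6 arrays compared (0.0564). Cox6a1, the common form of a regulatory subunit, was called in mutant cells, with 16312, 15889.8 and 16115 units in bcCML, against 10012, 11876 and 11419 units in AML (0.54 ± 0.15, adjusted p = 0.0143).

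In ATP synthase 5 members were called in mutant cells (Atp5a1, Atp5b, Atp5d, Atp5g3 and Atp5md) and none in wild-type cells. These are 29.4% and 0% of its 17 tested genes, below the 45.1% and 36.9% of all genes. Atp5md had 3825, 4594 and 4862 units in mutant bcCML and 2205, 2745 and 3060.3 units in mutant AML, with no overlap, and the largest difference of the 5, 0.74 ± 0.16 (limma adjusted p = 0.00353). Atp5b, the catalytic beta subunit, had 7024, 8788 and 8054 units in mutant bcCML and 5871, 5067 and 4951 units in mutant AML, with no overlap (0.58 ± 0.15, adjusted p = 0.00909). Of the c ring genes, Atp5g3 had 15886, 17693 and 16739 units in mutant bcCML and 12185, 12268 and 10272 units in mutant AML and was called (0.54 ± 0.12, adjusted p = 0.00478), while Atp5g1 (0.22 ± 0.14, 0.217) and Atp5g2 (0.13 ± 0.17, 0.567) were not. Mature c subunits of the 3 genes are the same protein. No peripheral stalk gene was called, with estimates from -0.08 to 0.18 in mutant cells.

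**Figure D4:**
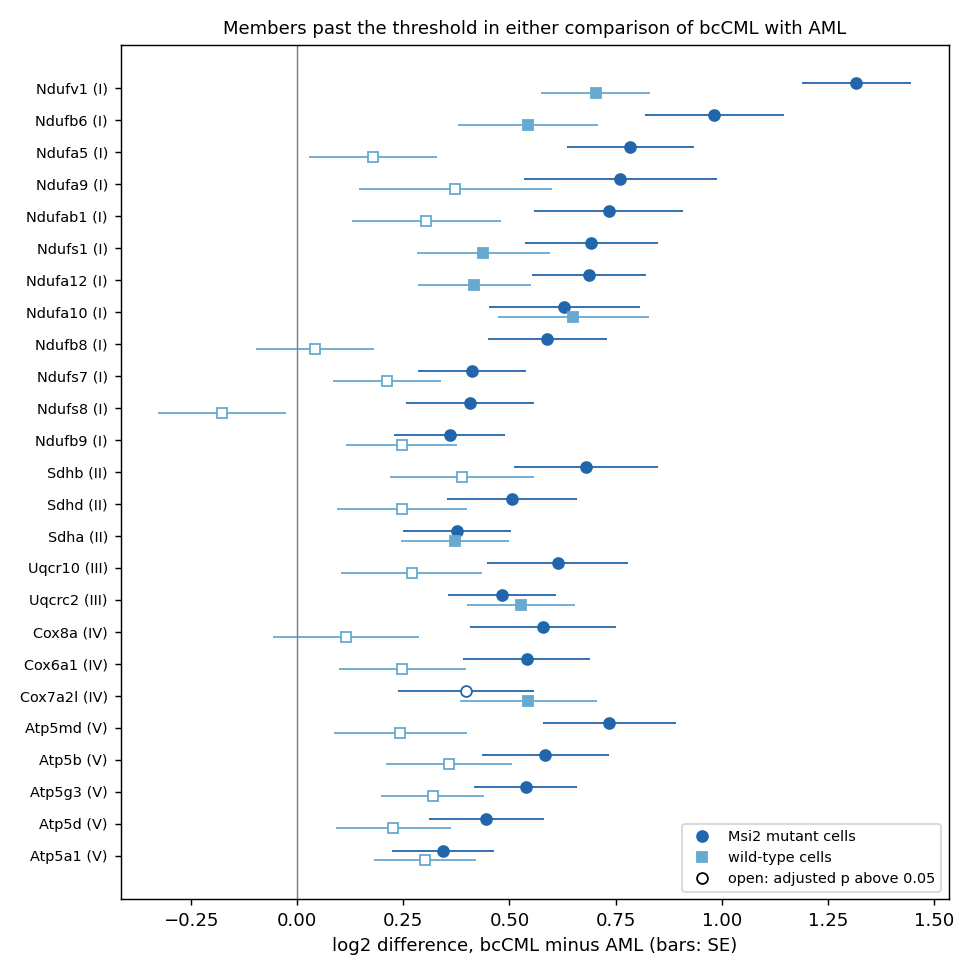
Log2 difference between bcCML and AML for the 25 members called in either genotype; circles are Msi2 mutant cells, squares wild-type cells, bars are SE, and open symbols have a limma adjusted p above 0.05. All 25 lie above 0 in mutant cells, and Ndufs8 alone lies below 0 in wild-type cells, at -0.18.

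Some calls were close to the threshold. In mutant cells 13 of the 24 calls held in every alternative run, and in wild-type cells 2 of the 8 did, Ndufv1 and Uqcrc2. Ndufs8 in mutant cells held without bcCML mutant array 1 and was lost without any 1 of the other 11 arrays (adjusted p up to 0.167). Ndufs1 in wild-type cells was lost without any 1 of 9 arrays (all 3 wild-type AML, AML mutant array 3, bcCML wild-type arrays 1 and 2, and all 3 mutant bcCML), with an adjusted p up to 0.159. Ndufa12 in wild-type cells was lost without array 2 or 3 of wild-type bcCML, or array 1 or 3 of wild-type AML (up to 0.111). Just inside the threshold lay Ndufs8 in mutant cells (0.049) and Ndufs1 in wild-type cells (0.0495), and just outside it Ndufs3 in mutant cells (0.0538) and Cox6c in wild-type cells (0.0504).

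Markers of other cell types also differed between the leukaemias. In bcCML, monocyte and macrophage markers summed to 1236 to 2205 units, against 13351 to 55713 units in AML. Of the 10 on the array, 3 (Csf1r, Cd14 and Ms4a6c) were under the filter level on all bcCML arrays. Fcgr1 was under it on all AML arrays and was called higher in wild-type bcCML. In each genotype 1 of the 10 had an estimate above 0. Neutrophil granule markers summed to 3946 to 36976 units in bcCML, against 131227 to 243523 units in AML. Of these 12, Mpo alone had an estimate above 0, in wild-type cells only. Erythroid markers summed to 1275 to 3588 units in bcCML, against 34 to 44.9 units in AML, where 6 of the 7 on the array were under the filter level. Megakaryocyte markers summed to 3915 to 11525 units in bcCML and 53 to 972 units in AML. Of the 6 tested, 1 (Vwf) had an estimate below 0, in mutant cells only. The sums of T and NK cell, B cell, and mast cell, basophil and eosinophil markers did not overlap either. In wild-type cells 2 of the 3 tested B cell markers had estimates above 0, while Cd79b was called lower in bcCML. The part of these cell types in the members' differences was not tested, and the sorting gates differed as well.

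Several subunits have tissue forms, whose levels are given one by one, since different probe sets are not compared. The probe sets of Cox8b, Cox8c, Cox7b2 and Ndufa4l2 stayed under 6 units on every array, close to the floor of 4.49 units. Cox8b and Cox8c are known as a muscle and a testis form, and Ndufa4l2 as a hypoxia-induced relative of Ndufa4, whose product is now placed in complex IV. By their symbols, Ndufa4 and Ndufa4l2 were counted with complex I throughout. Cox4i2, a lung form of the subunit encoded by Cox4i1, exceeded 16 units on 2 bcCML arrays, with 4.68, 7.67 and 61.4 units in mutant and 7.37, 45.8 and 13.3 units in wild-type bcCML, against 4.67 to 4.68 units over the AML arrays. Cox7a1, a muscle form, ranged over 5.33 to 6.12 units in bcCML, against 19.6, 21.4 and 7.19 units in mutant AML and 14.6, 44.8 and 6.02 units in wild-type AML. Only 3 AML arrays were above 16 units, so its log2 differences rest on values near the floor. Cox6a2, another muscle form, ranged over 29.9 to 55 units in bcCML and 20.4 to 44.2 units in AML. Cox6b2, known as a testis form, ranged over 2235 to 5404 units in bcCML and 3025 to 6130.4 units in AML, and its groups overlapped in every comparison. The sixth gene that did not pass was Ndufb4, at 4.51 to 4.96 units over the 12 arrays, whose other probe sets are shared with Ndufb4b and Ndufb4c and were not used. The common forms ranged as follows: Cox4i1 at 7517 to 8624 units in bcCML and 7607 to 8640.2 units in AML, Cox6b1 at 13831 to 15755 and 13961 to 16291 units, Cox7a2 at 17909 to 21783 and 20984 to 23617 units, and Ndufa4 at 3601 to 4417 and 3016 to 4076 units. None of these 4 was called in any comparison, apart from Cox7a2 in the alternatives named above.

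**Figure D5:**
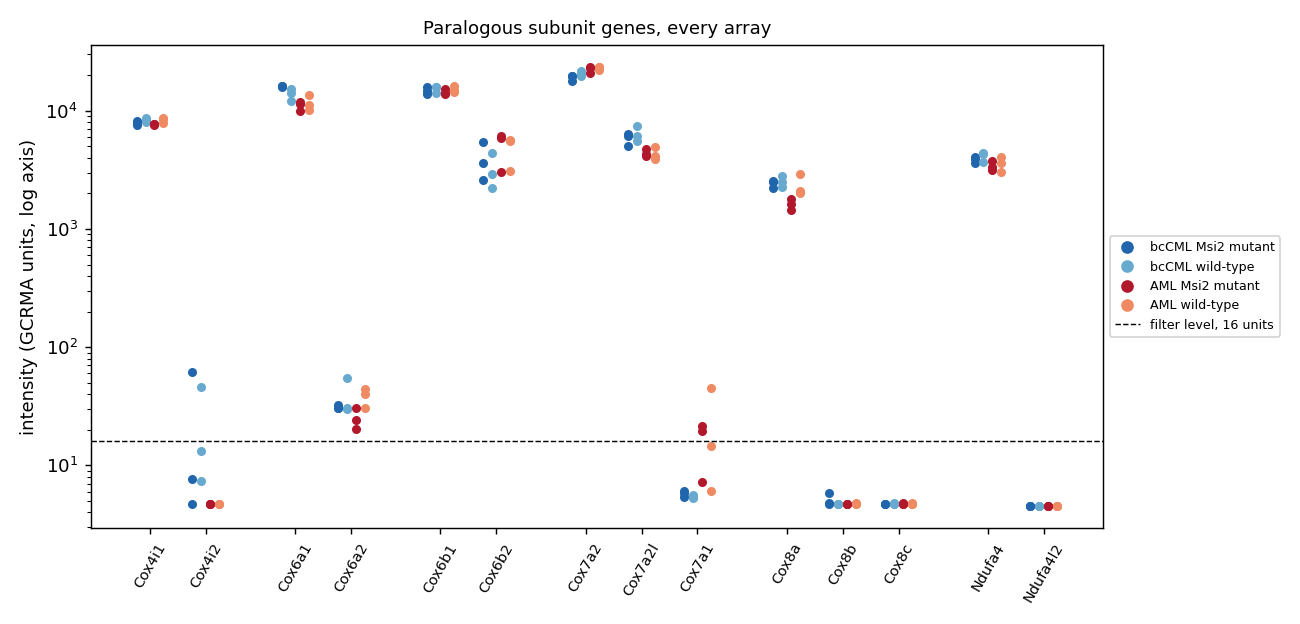
Intensity of paralogous subunit genes on every array, on a log axis, with the filter level of 16 units dashed; points are arrays and colours the 4 groups, bcCML left of AML and mutant left of wild-type within each gene. Cox8b, Cox8c and Ndufa4l2 lie under the line on all 12 arrays, and Cox4i2 lies above it on 2 bcCML arrays.

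Genes around the chain were described by lists. Of 45 tested assembly factors, which help to build the complexes, 0 were called between AML mutant and wild-type cells, and 37 had an estimate below 0, against 57.1% of all genes (median -0.22). Between the leukaemias, 15 were called higher and 4 lower in mutant bcCML, and 9 higher and 1 lower in wild-type bcCML. These are 42.2% and 22.2% of the list, against 45.1% and 36.9% of all genes. Sco2, a copper chaperone of complex IV, had 461, 552 and 562 units in mutant bcCML and 234, 199 and 162 units in mutant AML (1.41 ± 0.19, limma adjusted p = 0.000181). Ndufaf3, an early assembly factor of complex I, went the other way, with 321, 498 and 437 units in mutant bcCML and 1035, 992 and 1026 units in mutant AML (-1.31 ± 0.21, adjusted p = 0.000692). The groups did not overlap in either gene.

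Among 7 tested carriers of ADP, ATP and phosphate, 1 (14.3%, against 1.52% of all genes) was called in AML mutant cells. Slc25a4, which exchanges ADP for ATP across the inner membrane, had 549, 1059 and 1009 units in mutant and 3198, 3188 and 2359.6 units in wild-type AML, with no overlap (-1.79 ± 0.26, limma adjusted p = 0.0132). The call ended without AML wild-type array 1 (0.0681), on the AML arrays alone (0.161) and with the block (0.0587). In bcCML it had 4812, 5634 and 6279 units in mutant and 4940.2, 6817 and 5149 units in wild-type cells, with a difference of -0.01 ± 0.26 (adjusted p = 1), and its interaction of 1.78 ± 0.37 did not pass (0.138).

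In the citric acid cycle and pyruvate dehydrogenase list of 17 genes, 10 were called higher and 1 lower in mutant bcCML against AML, and 5 higher and 1 lower in wild-type bcCML. These are 64.7% and 35.3% of the list, against 45.1% and 36.9% of all genes. The lower one was Idh2 in both, with 461, 461 and 629 units in mutant bcCML and 2020.1, 2487 and 2625 units in mutant AML (-2.21 ± 0.22, limma adjusted p = 2.97e-05). The 3 subunit genes of the NAD-dependent enzyme, Idh3a, Idh3b and Idh3g, were called higher in both genotypes, with differences of 0.82, 0.55 and 0.34 in mutant cells. Of these calls, those of Idh3a and Idh3b in mutant cells held without any 1 array, and each of the others ended without at least 5 of the arrays left out in turn (adjusted p up to 0.126). Of 7 tested subunits and partners outside the symbol prefixes, Cyc1 and ND5 among them, 3 were called higher and 1 lower in both genotypes. This is 57.1% of the list in each, against 45.1% and 36.9% of all genes. Atpif1, the inhibitor of ATP synthase, had 11359, 10017 and 11711 units in mutant bcCML and 4797, 4455 and 4496 units in mutant AML (1.26 ± 0.14, adjusted p = 6.63e-05), and Higd2a fell to 2083, 2058 and 2211 units in mutant bcCML, against 3687, 5460.1 and 4335 units in mutant AML. ND5, a complex I core subunit of the mitochondrial genome, was not called, at 0.33 ± 0.13 in mutant cells (0.0569) and 0.29 ± 0.13 in wild-type cells (0.104).

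Of 21 regulators of mitochondrial gene expression, 6 were called higher and 4 lower in mutant bcCML, and 5 higher and 2 lower in wild-type bcCML. These are 47.6% and 33.3% of the list, near the 45.1% and 36.9% of all genes. Tfam, which packs and transcribes mitochondrial DNA, had 899, 929.9 and 1055 units in mutant bcCML and 595, 528 and 496 units in mutant AML (0.83 ± 0.16, limma adjusted p = 0.00183). Nrf1, a transcription factor known to bind promoters of respiratory chain genes, had 314, 364 and 295 units in mutant bcCML and 573, 474 and 468 units in mutant AML (-0.64 ± 0.17, adjusted p = 0.0104). In wild-type cells the differences were 0.66 ± 0.16 for Tfam (adjusted p = 0.00859) and -0.79 ± 0.17 for Nrf1 (0.00423).

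Promoters were taken from RefSeq for 68 of the 83 members, as 250 bases before to 50 after the start of the gene on GRCm38.p6. The motifs searched, on both strands, were GCGCANGCG for NRF1, CCGGAAG for GABPA and other ETS factors, AAGATGGC for YY1 and TATAAA for the TATA box, none of which contains another. Shares are given for the 70 promoters of 65 tested members, beside all 32851 promoters, whether or not their genes were tested here. No comparison with promoters of bright genes was made. The NRF1 letters stood in 27.1% of the 70, against 6.25% of the 32851. The ETS letters stood in 24.3%, against 8.86%, and the YY1 letters in 12.9%, against 2.75%. The TATA letters stood in 10%, against 13.6%. Among genes with a promoter, the NRF1 letters were found for 5 of 21 members called between the leukaemias and for 13 of 44 not called. The motifs and the promoters shown were chosen after values had been seen.

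In lower case, with motif matches in capitals and read 5′ to 3′, follow the promoters of Ndufv1, the member with the largest difference among those called in each comparison, of Sdha and Ndufb6, called in both genotypes, and of Atp5h, a peripheral stalk gene that was not called.
Ndufv1 (GRCm38.p6, chr19:4012706-4013005, minus strand): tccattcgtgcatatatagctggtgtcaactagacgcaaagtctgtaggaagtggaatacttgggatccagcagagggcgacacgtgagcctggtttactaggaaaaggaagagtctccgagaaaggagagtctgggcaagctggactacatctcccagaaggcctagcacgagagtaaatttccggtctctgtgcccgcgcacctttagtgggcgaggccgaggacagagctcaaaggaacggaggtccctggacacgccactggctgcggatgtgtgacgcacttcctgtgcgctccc
Sdha (GRCm38.p6, chr13:74350191-74350490, minus strand): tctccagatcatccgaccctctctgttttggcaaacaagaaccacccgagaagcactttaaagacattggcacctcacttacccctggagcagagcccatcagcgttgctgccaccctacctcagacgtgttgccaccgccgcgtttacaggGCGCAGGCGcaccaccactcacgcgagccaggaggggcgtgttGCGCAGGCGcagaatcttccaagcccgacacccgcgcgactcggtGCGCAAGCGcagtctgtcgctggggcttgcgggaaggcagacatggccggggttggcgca
Ndufb6 (GRCm38.p6, chr4:40279372-40279671, minus strand): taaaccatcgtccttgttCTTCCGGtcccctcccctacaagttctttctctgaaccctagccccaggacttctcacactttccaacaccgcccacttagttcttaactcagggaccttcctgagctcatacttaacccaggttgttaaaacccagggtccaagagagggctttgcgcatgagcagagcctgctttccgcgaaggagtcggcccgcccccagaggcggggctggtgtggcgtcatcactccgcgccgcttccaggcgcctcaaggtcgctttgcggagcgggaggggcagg
Atp5h (GRCm38.p6, chr11:115419870-115420169, minus strand): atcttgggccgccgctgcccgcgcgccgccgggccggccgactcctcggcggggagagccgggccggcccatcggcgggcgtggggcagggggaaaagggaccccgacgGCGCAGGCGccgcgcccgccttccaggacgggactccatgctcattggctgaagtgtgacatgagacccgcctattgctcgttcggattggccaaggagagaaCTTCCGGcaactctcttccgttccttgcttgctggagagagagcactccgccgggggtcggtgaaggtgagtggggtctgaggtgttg
The Sdha promoter holds 3 matches to the NRF1 letters, Ndufb6 holds 1 to the ETS letters and Atp5h holds 1 of each. The Ndufv1 window holds none, which says only that these letters are not in these 300 bases. A match is a run of letters and not a measured site, and matches were found both in called and in uncalled members.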

How the data were processed

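RNA was measured on 12 Affymetrix mouse arrays, 1 per sample, from Trizol-extracted total RNA, per the labels' protocols. The deposited values are linear intensity values per probe set that the authors computed with GCRMA, as the submitters' processing notes name it. Which version they ran is not given in the sources used here. This method corrects for background, normalizes between arrays and sets dim probe sets near a floor, here 4.49 units. The sizes of changes of dim genes are therefore uncertain. The number of arrays, 3 a group, limits precision.

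Log2 of the deposited intensities, without a pseudocount, went into linear models (lmFit and eBayes of limma 3.58.1, R 4.3.3, two-sided) over all 12 arrays in 4 groups. Probe sets with 1 gene symbol (34945, with 932 of several symbols and 9160 without) and log2 above 4 on at least 3 arrays were kept, and each gene was read from its brightest probe set. P-values were adjusted by Benjamini-Hochberg over 10817 genes, with a threshold of 0.05. For 10 probe sets with several symbols one was a member, and they were not used. Sequences and gene order came from RefSeq tables (GRCm38.p6), and Python 3.11.15 with pandas 2.3.3 and matplotlib 3.10.9 made summaries and figures. The fit was tested on simulated data.

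Named members were those called (the 6 largest rises and falls per comparison), the 2 smallest p per complex in each mutant comparison, complex II, Cycs, isoform groups, and the brightest and dimmest of each complex; other members were named after their values were seen. Members and lists were chosen with earlier results of these data known. Whether equal replicate numbers pair arrays was looked at by the correlation of deviations from group means. This was 0.396, 0.364 and 0.278 in bcCML and between -0.12 and -0.03 in AML. Such correlations do not establish pairs and the labels state none, so the main fit used no block. Alternatives were other filters, probe set means, a pseudocount of 16, quantile normalization, median centring (added after seeing the data), fits on a comparison's arrays only, the replicate block, limma-trend with robust eBayes, and leaving out each array.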

Additional observations from a re-analysis of the deposited data

Results flagged for a closer look

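Pprc1, a coactivator of nuclear genes for mitochondria and one of the regulators listed, is given here because its mutant arrays all moved one way in one leukaemia and all the opposite way in the other. It had 607, 676 and 645 units in mutant and 595, 557 and 588 units in wild-type bcCML, and 153, 216 and 320.2 units in mutant and 395, 458 and 419.9 units in wild-type AML. Mutant arrays lay above all wild-type arrays in bcCML and below them in AML. The interaction was 1.09 ± 0.32 on the log2 scale and did not pass (limma adjusted p = 0.301).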

How the results depend on the processing

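Counts of called members moved as follows. In AML mutant against wild-type cells, 1 call became 0 with a fit on the 6 arrays only, 0 with the replicate block and 3 with limma-trend. In wild-type bcCML against AML, 8 calls became 4 on the 6 arrays only, 13 with limma-trend and 14 with median centring. Leaving out 1 array gave 0 to 1 in AML (0 without wild-type array 1), 0 to 0 in bcCML and in the interaction, 16 to 25 between mutant leukaemias and 4 to 10 between wild-type ones (4 without any one of the wild-type AML arrays, or array 1 or 2 of wild-type bcCML; without AML array 3 the 4 were 3 higher and 1 lower, Cox7a1). The members' median then ran from -0.20 to -0.08 in AML, from -0.07 to 0.01 in bcCML, from 0.04 to 0.17 for the interaction, from 0.16 to 0.29 between mutant and from 0.03 to 0.17 between wild-type leukaemias. Over the alternatives other than leaving out an array, the median of all genes moved by at most 0.0707, with median centring in AML. Of single-gene values, Dlst turned from called higher to -0.0882 (not called) in mutant bcCML against AML with probe set means; the cause was not tested. Calls over all genes between mutant and wild-type cells were 164 in AML (63 with the block, 30 to 162 without 1 array, 0 on the AML arrays only) and 15 in bcCML (27 with the block, 6 to 15 without 1 array, 0 on the bcCML arrays only), and the interaction had 0 to 8 over the alternatives. Among members and the called genes of the mitochondrial lists, the block changed no call between mutant and wild-type cells other than those of Ndufv1 and Slc25a4 in AML. For 45 members several probe sets passed the filter. All probe sets of a gene shared a sign for 37 of these in AML and 31 in bcCML. They did so for 31 in the interaction, 31 between wild-type and 34 between mutant leukaemias. Counts of members above or below 0 rest on the brightest probe set only. Depth of signal limits Cox7a1, Cox6a2, Cox4i2 and Ndufb1, which lie near the floor.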

Other observations

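Single genes of coenzyme Q and of antioxidant defence differed between the leukaemias, while the lists' shares of calls lay near those of all genes (45.1% in mutant and 36.9% in wild-type cells). Coq8a, a kinase-like protein of coenzyme Q synthesis, had 2688, 1663 and 3633 units in mutant bcCML and 79.7, 44.1 and 20.5 units in mutant AML, with no overlap (5.93 ± 0.98, limma adjusted p = 0.000754). Sqor, which feeds electrons from sulphide into coenzyme Q, had 37.3, 8.25 and 6.63 units in mutant bcCML, against 2669.9, 3601 and 1863 units in mutant AML, and was called lower (adjusted p = 1.53e-05). No size is given for it, since mutant arrays 2 and 3 of bcCML lay under the filter level. Of 19 tested genes of that list, 5 were called higher and 3 lower in mutant bcCML, and 2 higher and 4 lower in wild-type bcCML (42.1% and 31.6%). Of 10 antioxidant genes, 3 were called higher and 2 lower in mutant bcCML, and 2 in each direction in wild-type bcCML (50% and 40%). Prdx3, the mitochondrial peroxiredoxin, had 3139.7, 3262 and 2471 units in mutant bcCML and 522, 928 and 1056 units in mutant AML (1.88 ± 0.26, adjusted p = 0.000239).

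Ndufs8 and Ndufv1, the members with the smallest p values in AML, are near neighbours on chromosome 19, with 8 protein-coding genes between them, 5 of them tested. All 5 had AML estimates below 0, against 57.1% of all genes. The estimates ran from -1.24 (Nudt8, limma adjusted p = 0.0653) to -0.05 (Aldh3b1, 0.961), and none was called. This neighbourhood was noticed after the values were seen and was not tested.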
